A study of Mus musculus with 56 samples.

Results

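IL-33 given to cultured mouse microglia was compared with medium alone across the whole transcriptome. The 14 cultures, of the 56 samples in the series, were chosen by their labels: 7 libraries labelled IL33 and 7 labelled Medium, each found in the deposited count table by the code in its title. Both groups were primary microglia from wild-type B6 mice of postnatal days 5 to 8, taken from papain-digested brain by a 40% Percoll gradient and CD11b beads. The cells were grown on coated plates with 10 ng/ml M-CSF, 2.5% serum and 5 ug/ml of the antioxidant N-acetyl cysteine and used after 7 to 9 days in vitro, so both groups share these additions and the time away from the brain. IL-33 was added at 200 ng/ml for 3 h. The treatment text also names a pretreatment with 0.2 uM GSK-J4, an inhibitor of the demethylases of histone H3 lysine 27, for 1 h, and it is not stated which wells had it, so a pretreatment of either or both groups cannot be told apart from none. Nor do the labels say whether the 7 wells of a group came from separate mice or cultures, so every p-value below measures the spread between these libraries, which may be technical. The rest of the series holds sorted and single-cell microglia, of which only the 16 bulk libraries of Tau-GFP sorted cells are used here, in 1 comparison at the end.

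IL-33 is a cytokine that cells release when they are damaged or stressed. It binds the receptor ST2, encoded by Il1rl1, together with the shared chain Il1rap, and the adaptor MyD88 and the IRAK kinases then pass the signal through TRAF ubiquitin ligases to the NF-kB factors and the MAP kinases. NF-kB switches on inflammatory genes and also its own brakes, the IkB proteins and the ubiquitin editors, so early responses to such signals usually hold both. In the brain microglia are the resident macrophages, and in tissue they carry a set of receptors and transporters, the homeostatic genes, that is known to fade in culture and under inflammatory stimuli.

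The binding letters of NF-kB can be read in the promoters of some genes that rose. The stretches below are from RefSeq promoters (build GRCm38.p6), run 5′ to 3′ on the strand of the gene, stop at or before the transcription start, and show in capitals each match to the kappaB motif, the site that NF-kB dimers bind. Each was picked from higher genes whose promoter holds a match, and most promoters of higher genes hold none, as the counts after them show. They belong to 3 NF-kB brakes (Nfkbia, Nfkbie and Tnip1), a chemokine (Cxcl2), a receptor (Tlr2) and an antioxidant enzyme (Sod2), which are among the functions described below.
Nfkbia (chr12:55492648-55492716, minus strand): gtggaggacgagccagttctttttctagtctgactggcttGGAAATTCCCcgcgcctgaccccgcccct
Nfkbie (chr17:45555554-45555643, plus strand): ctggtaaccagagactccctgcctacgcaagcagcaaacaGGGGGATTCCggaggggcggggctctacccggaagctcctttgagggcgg
Tnip1 (chr11:54962947-54963038, minus strand): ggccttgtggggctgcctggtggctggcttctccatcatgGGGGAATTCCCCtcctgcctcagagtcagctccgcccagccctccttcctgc
Cxcl2 (chr5:90903762-90903852, plus strand): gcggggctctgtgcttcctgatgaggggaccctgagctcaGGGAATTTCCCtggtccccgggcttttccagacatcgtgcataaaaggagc
Tlr2 (chr3:83841731-83841821, minus strand): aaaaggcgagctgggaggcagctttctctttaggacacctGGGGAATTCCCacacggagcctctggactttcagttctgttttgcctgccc
Sod2 (chr17:13007716-13007805, plus strand): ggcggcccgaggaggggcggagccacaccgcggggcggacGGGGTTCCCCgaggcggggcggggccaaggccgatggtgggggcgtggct
The kappaB motif was searched on both strands of the window from 250 bases before to 50 bases after each start. A promoter counts once however many matches it holds. A gene with several starts counts once for each, also where their windows overlap. It was found in 54 of 481 promoters of higher genes (11.2%), in 25 of 405 promoters of lower genes (6.17%), in 489 of 10210 promoters of genes that were not called (4.79%) and in 4.51% of all 32851 promoters in the table. A promoter could be matched by symbol for 366 of 454 higher genes with a usable symbol and for 298 of 383 lower genes. A match is a description of letters and not of a bound site. The share of promoters with the PU.1 motif, that of the main macrophage factor, was 5.82% among higher and 7.16% among lower genes beside 3.11% among genes not called. The share with the C/EBP motif was 12.1% in both directions beside 8.08%. Among the 61 promoters of genes at least 2-fold higher, kappaB lay in 7 (11.5%), PU.1 in 2 (3.28%) and C/EBP in 15 (24.6%). The ISRE core, a motif of interferon-stimulated genes, lay in 7 of the 61 (11.5%) beside 3.1% among genes not called.

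The 14 libraries held between 7709047 and 11826389 expected counts, and 13289 to 13480 genes were above 0 in each. Levels are given in CPM, which divides the counts of a library by its TMM-adjusted size so that libraries can be compared. Gene to gene levels cannot be compared on this scale, since it is not per length. No pair of libraries agreed within counting noise. The library of medium replicate 2 stood apart from its group, with 16 of the 32 extreme values noted among the genes named here. A principal component with 14.3% of the variance placed libraries numbered 1 to 3 below those numbered 4 to 7 within each group, a split that no label names. The ribosomal RNA precursor Rn45s took 11.1% to 11.4% of the counts in medium (median 11.3%) and 8.41% to 10.7% with IL-33 (median 9.91%), without overlap. Its part in the other results was not tested beyond a fit without it, which called 452 higher and 390 lower genes. Read as well positions, the column codes place the medium cultures before the IL-33 cultures, so position and treatment cannot be told apart.

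Of 18 microglial markers 17 were tested, and Siglech, with 0 to 2 counts per library, was near absent. The summed level of the list was 17300 to 19300 CPM in medium and 17200 to 17700 CPM with IL-33, with 6 members called lower and none higher. Among members not called, the log2 fold change was positive for Csf1r (0.16), Aif1 (0.17) and Sall1 (0.15). It was negative for Cx3cr1, Fcrls, Olfml3, Tyrobp, Ctss, C1qa, C1qb and C1qc. In Csf1r all 7 IL-33 libraries (2840 to 3092 CPM) lay above the medium libraries (2057 to 2810 CPM). Mast cells and innate lymphoid cells are the classic ST2-bearing cells. Of 12 mast cell markers 7 had no count in any of the 14 libraries: Kit, Cpa3, Mcpt4, Tpsab1, Cma1, Fcer1a and Gata1. Ms4a2, Hdc and Gata2 had 0 to 3 counts per library, and Tpsb2 had 0 to 1. Of 16 lymphoid and ILC2 markers 8 had no count, Il13, Il5 and Il9r among them, and Gata3 had 0 to 1 counts. Cd4, Il7r and Rora, the only 3 members of that list tested, were not called. The mast cell list summed to 85.4 to 96.7 CPM in medium and 92.1 to 98.9 CPM with IL-33 with 11 of 12 markers under 1 CPM and Srgn, which microglia also express, as the other, and the lymphoid and ILC2 list to 8.64 to 20.4 CPM and 8.08 to 15.5 CPM. Neutrophil markers summed to 82.3 to 118 CPM in medium and 109 to 127 CPM with IL-33, with S100a9, Ngp, Ltf, Mpo and Elane at 0 in every library and none of the 4 tested members called. Monocyte markers summed to 9610 to 10700 CPM and 10100 to 10700 CPM, with 1 of 7 tested members higher. Border macrophage markers summed to 1120 to 1570 CPM and 1200 to 1540 CPM. Most of that sum was Ms4a7 (median 599.6 CPM in medium and 614 CPM with IL-33) and F13a1 (563 and 547 CPM). Pf4 (148 and 117 CPM), Siglec1 (70.5 and 68 CPM), Mrc1 (53.6 and 31.7 CPM) and Folr2 (24.5 and 20.4 CPM) were expressed too. Cd163, Lyve1, Cbr2, Cd209f, Clec10a and Mgl2 were under 1 CPM. The part of such cells in the results was not tested. None of the tested members of the astrocyte (4), oligodendrocyte (4), neuron (1), endothelial (4), mural (2) and border macrophage (6) lists was called. Over all genes tested 7.76% were called, so with so few members tested this says little. Il1rl1 itself had 1 to 16 counts per library, too few to be tested.

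IL-33 raised 456 genes (4.22% of the 10815 tested) and lowered 383 (3.54%), or 7.76% in either direction, at an adjusted p under 0.05 (edgeR's quasi-likelihood test with Benjamini-Hochberg adjustment). Most changes were small. Of the higher genes 329 changed less than 1.5-fold, 61 at least 2-fold (0.564% of genes tested) and 16 at least 3-fold, and of the lower genes 327 changed less than 1.5-fold, 11 at least 2-fold (0.102%) and 0 at least 3-fold. The median fold was 1.29 among higher genes and 0.805 among lower ones. In 232 higher and 148 lower genes the 7 IL-33 libraries lay wholly outside the range of the 7 medium libraries, beside 2.15% and 1.4% of all genes tested. The share of genes called rose with the level, from 2.3% under 5 CPM, where the median SE of a log2 fold change was 0.253, to 24% over 100 CPM, where it was 0.046. A change of a given size was thus more often called in an abundant gene. Of the 1353 genes with a mean of at least 100 CPM, 13.3% were called higher and 10.7% lower, which is the background for lists of abundant genes.

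**Figure D1:**
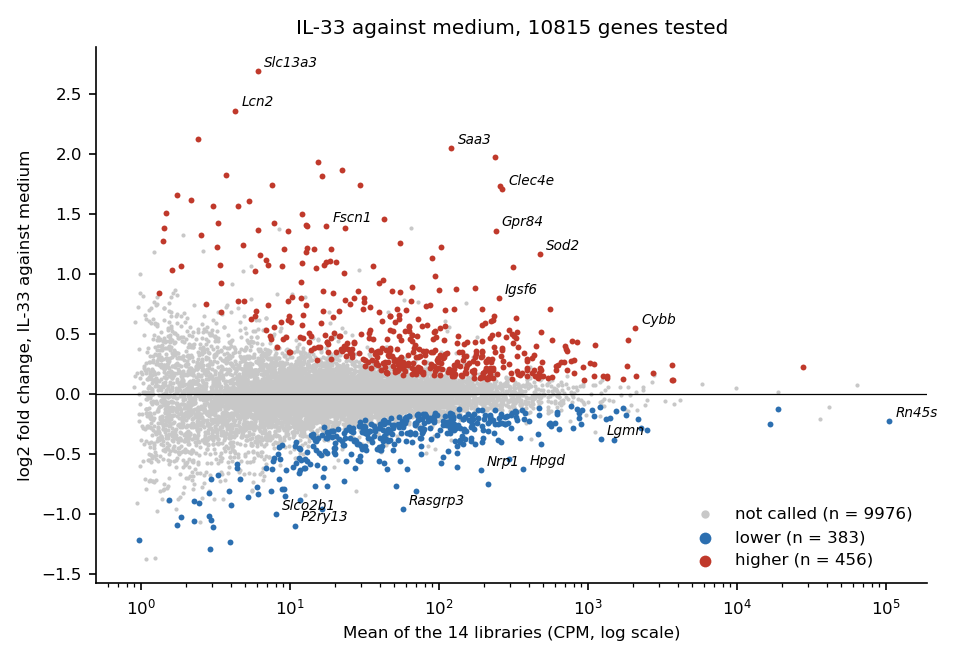
Log2 fold change of IL-33 against medium for each of 10815 genes (vertical axis) by its mean over the 14 libraries in CPM (horizontal axis, log scale), with higher genes in red, lower genes in blue and genes not called in grey. The 456 higher genes reach further from 0 than the 383 lower genes, and small changes are called mainly at high levels.

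Some genes of IkB proteins and both genes of the non-canonical NF-kB dimer rose, and the genes of the other subunits did not pass the test. Of 13 genes of NF-kB subunits and inhibitors 5 rose (38.5%, beside 4.22% of all genes tested) and none fell. The 5 were Nfkbia, Relb, Nfkb2, Nfkbie and Nfkbiz, and the remaining subunits and inhibitors did not pass the test. The median log2 fold change of the list was 0.18 beside -0.01 over all genes tested. Each change below is a log2 fold change of IL-33 over medium with its SE. Nfkbie, which encodes the inhibitor IkB epsilon, lay at 16.6 to 24.1 CPM (median 20.8) in medium and 31.7 to 41.1 CPM (median 37.5) with IL-33, a change of 0.86 ± 0.08 (adjusted p = 7.19e-07). Relb, the partner of p52 in the non-canonical dimer, lay at 52.4 to 72.5 CPM (median 61.3) in medium and 95.7 to 110.5 CPM (median 103) with IL-33 (0.74 ± 0.06, adjusted p = 9.58e-08). In both genes the lowest IL-33 library was above the highest medium library. Nfkb2, the precursor of p52, rose by 0.71 ± 0.06, and Nfkbiz, a nuclear IkB protein that opens a set of secondary genes, by 0.85 ± 0.11. Nfkb1, Rel and Rela, which encode p50, c-Rel and p65, had log2 fold changes of 0.18 ± 0.08, 0.03 ± 0.08 and 0.01 ± 0.05 with overlapping groups (adjusted p = 0.212, 0.913 and 0.973). The signs of the last 2 are within their error of 0.

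Among TRAF proteins, inhibitors of apoptosis and ubiquitin editors 8 of 32 rose (25%, beside 4.22% of all genes tested) and none fell (median 0.11). Traf1, an adaptor of TNF receptor signalling, lay at 6.76 to 9.31 CPM (median 7.27) in medium and 15.9 to 21.5 CPM (median 17.6) with IL-33, a rise of 1.22 ± 0.10 (adjusted p = 9.58e-08). The groups did not overlap. Birc3, the ubiquitin ligase cIAP2, rose by 0.86 ± 0.08. The ABIN proteins Tnip1 and Tnip3, which bring the deubiquitinase A20 to its targets, rose by 0.60 ± 0.06 and 0.51 ± 0.07, and Tnfaip3, A20 itself, by 0.35 ± 0.07 with groups that overlapped. Ikbke, an IKK-related kinase of interferon and NF-kB pathways, lay at 60.9 to 88.3 CPM (median 68.7) in medium and 119 to 137 CPM (median 129) with IL-33 and rose by 0.86 ± 0.07 (adjusted p = 8.84e-08), again without overlap.

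Of 19 tested genes of the receptor and its adaptors 2 rose (10.5%) and none fell (median 0.02), beside 4.22% and 3.54% of all genes tested. Irak3, the inactive IRAK that holds back MyD88 signalling, lay at 49.2 to 74 CPM (median 65.1) in medium and 102 to 126 CPM (median 107) with IL-33, a rise of 0.74 ± 0.07 (adjusted p = 8.08e-07) with no overlap. Myd88 rose by 0.20 ± 0.05 (adjusted p = 0.0129), and its groups overlapped. Of 29 MAP kinases and their phosphatases 2 rose (6.9%) and 1 fell (3.45%), near the shares over all genes tested (median -0.01). Mapk14, the p38 alpha kinase, rose by 0.53 ± 0.07 and its substrate kinase Mapkapk2 by 0.34 ± 0.08, and the phosphatase Dusp3 fell (-0.20 ± 0.05).

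Of 43 inducible bZIP, EGR and KLF factors 5 rose (11.6%, beside 4.22% of all genes tested) and 3 fell (6.98%, beside 3.54%), and 4 of the 12 with a mean of at least 100 CPM rose. Junb, an AP-1 subunit, lay at 262 to 326 CPM (median 295) in medium and 366 to 425 CPM (median 374) with IL-33 (0.39 ± 0.05, adjusted p = 4.91e-05), with no overlap. Ets2, a macrophage ETS factor, rose by 0.56 ± 0.10. Cebpa, which drives myeloid differentiation, fell from a median of 31.2 to 21.5 CPM (-0.50 ± 0.09, adjusted p = 0.000545).

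Of 30 factors of microglial and macrophage identity 6 fell (20%) and 1 rose (3.33%), beside 3.54% and 4.22% of all genes tested (median -0.13). Etv5, an ETS factor, lay at 159 to 193 CPM (median 183) in medium and 138 to 159 CPM (median 148) with IL-33 (-0.28 ± 0.05, adjusted p = 0.000352), and all IL-33 libraries were at or below the lowest medium library to the precision shown. Mef2c, a factor that keeps microglia in check, fell by 0.37 ± 0.06 on the log2 scale, Tcf4, a factor of the E-protein family, by 0.32 ± 0.06, and Irf8, a factor that microglia need to develop, by 0.25 ± 0.05. The rise was Nr1h3, the oxysterol receptor LXR alpha (0.85 ± 0.16, adjusted p = 0.00112).

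Of 29 BET, acetylase, deacetylase and SWI/SNF genes 1 rose (3.45%) and 4 fell (13.8%), beside 4.22% and 3.54% of all genes tested (median -0.06). Of 22 histone demethylase and Polycomb genes none rose and 1 fell, the demethylase Kdm2b (-0.32 ± 0.08), a share near that of all genes tested. The targets of GSK-J4, Kdm6a and Kdm6b, had log2 fold changes of 0.15 ± 0.12 and -0.06 ± 0.33 (adjusted p = 0.563 and 0.956), and Kdm6b had 5 to 23 counts per library, so its value is imprecise. Hdac9, a class IIa deacetylase, lay at 15.1 to 31.8 CPM (median 22.1) in medium and 9.06 to 15.8 CPM (median 13) with IL-33 and fell by 0.77 ± 0.14 on the log2 scale (adjusted p = 0.000925), with slightly overlapping groups. N4bp1, an inhibitor of NF-kB signalling and an RNA nuclease, rose by 0.53 ± 0.07 (adjusted p = 2.97e-05). It belongs to 26 mRNA decay and RNA-binding genes, of which 2 rose (7.69%) and none fell.

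Of 13 tested genes of the chemokine list 9 rose (69.2%) and 1 fell (7.69%), beside 4.22% and 3.54% of all genes tested (median 0.50). Among the 9 was Ccrl2, an atypical chemokine receptor and no chemokine. Cxcl16, a membrane-bound chemokine and scavenger of oxidized lipid, lay at 569 to 638 CPM (median 593) in medium and 722 to 866 CPM (median 793) with IL-33 (0.40 ± 0.04, adjusted p = 1.77e-06). The groups were apart, although the change was under 1.5-fold. Ccl4 and Ccl5, which attract monocytes and T cells, rose by 0.65 ± 0.13 and 0.81 ± 0.19 with overlapping groups, and Cxcl14 fell by 0.21 ± 0.06 on the log2 scale.

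Of 17 tested cytokine genes 3 rose and 3 fell (17.6% each, beside 4.22% and 3.54% of all genes tested), so the direction was mixed. Tnf (chr17:35199367-35202007 on GRCm38.p6), the gene of tumour necrosis factor, lay at 42.1 to 75.5 CPM (median 50.7) in medium and 89.6 to 144 CPM (median 123) with IL-33, a rise of 1.14 ± 0.12 (adjusted p = 2.89e-06). All 7 IL-33 libraries were above every medium library. Tnfsf13, which encodes the B-cell factor APRIL, lay at 5.05 to 9.31 CPM (median 6.69) in medium and 2.72 to 4.81 CPM (median 3.62) with IL-33 and fell by 0.86 ± 0.16 on the log2 scale (adjusted p = 0.0012). Il6, Il10, Il12b, Csf2 and Nos2, common products of strongly activated macrophages, did not reach the level needed for a test. Il1a, which encodes interleukin-1 alpha, also had too few counts for it, at 0 to 0.454 CPM (median 0.309) in medium and 0.614 to 7.57 CPM (median 1.87) with IL-33, and its groups did not overlap. C3, the central complement component, was the 1 complement gene called of 16 tested (6.25%, beside 7.76% of all genes tested). Its level lay at 83.3 to 147 CPM (median 120.1) in medium and 199 to 290.5 CPM (median 221) with IL-33 (0.89 ± 0.10, adjusted p = 4.99e-06).

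In prostaglandin and leukotriene synthesis 2 of 17 genes rose (11.8%) and 5 fell (29.4%), beside 4.22% and 3.54% of all genes tested (median -0.16). The 2 that rose act in sequence to make prostaglandin E2. Ptgs2, the inducible cyclooxygenase, rose from 0.49 to 4.92 CPM (median 1.03) in medium to 3.27 to 8.94 CPM (median 5.06) with IL-33 (1.82 ± 0.38, adjusted p = 0.00366), at low counts and with overlap. Ptges, the enzyme after it, lay at 56.7 to 129.9 CPM (median 89.4) in medium and 351 to 437 CPM (median 372) with IL-33 (1.98 ± 0.13). Hpgd, which breaks prostaglandins down, lay at 389.5 to 497 CPM (median 452) in medium and 246 to 312 CPM (median 295) with IL-33 and fell by 0.62 ± 0.06 on the log2 scale (adjusted p = 3.06e-07), with no overlap. The constitutive cyclooxygenase Ptgs1 (-0.38 ± 0.10) and the synthases of the other prostanoids, Tbxas1 for thromboxane (-0.26 ± 0.05) and Hpgds for prostaglandin D2 (-0.28 ± 0.06), were lower as well, as was the phospholipase Pla2g15 (-0.31 ± 0.06).

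Surface receptors moved in both directions. Of 43 G protein-coupled receptors 8 rose (18.6%) and 5 fell (11.6%), beside 4.22% and 3.54% of all genes tested (median 0.00). Gpr84 (chr15:103308233-103310670, coordinates from RefSeq on GRCm38.p6), a receptor for medium-chain fatty acids, lay at 114 to 152 CPM (median 138) in medium and 261 to 449 CPM (median 326) with IL-33, a rise of 1.36 ± 0.10 (adjusted p = 1.34e-08). Fpr1, the receptor for bacterial formyl peptides, lay at 110.0 to 236 CPM (median 217) in medium and 386 to 447 CPM (median 426) with IL-33 (1.06 ± 0.11, adjusted p = 1.6e-06). Neither gene's groups overlapped, and in Fpr1 the low value of 110.0 CPM was medium replicate 2, without which the rise was 0.95 ± 0.05. Its neighbour Fpr2 rose by 1.1 ± 0.13, and reads may be shared between these close relatives. Adora2b, the low-affinity adenosine receptor, rose by 1.05 ± 0.13, and Emr1, which encodes F4/80, by 0.45 ± 0.05. The lower receptors were P2ry12 (-0.88 ± 0.15), P2ry13 (-1.1 ± 0.16) and Gpr34 (-0.95 ± 0.18), which read nucleotides and lysophospholipid, S1pr1 (-0.25 ± 0.05), the sphingosine phosphate receptor, and Gpr183 (-0.46 ± 0.09), the oxysterol receptor EBI2.

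Of 44 cytokine and growth factor receptors 7 rose (15.9%) and 6 fell (13.6%), beside 4.22% and 3.54% of all genes tested. Of the 18 with a mean of at least 100 CPM 6 rose and 2 fell, beside 13.3% and 10.7% of all genes at that level. Fas, the death receptor, lay at 4.63 to 6.18 CPM (median 5.78) in medium and 9.44 to 14.7 CPM (median 12.4) with IL-33 (1.21 ± 0.12, adjusted p = 1.22e-06), and its groups were apart. Tnfrsf1b, TNF receptor 2, rose by 0.45 ± 0.04, Csf2rb, the beta chain for GM-CSF and interleukin-3, by 0.38 ± 0.05, and Il2rg, the common gamma chain, by 0.48 ± 0.06. Tgfbr2, through which TGF-beta holds microglia in their resting state, lay at 223 to 326 CPM (median 305) in medium and 177 to 249 CPM (median 235) with IL-33 and fell by 0.40 ± 0.08 on the log2 scale (adjusted p = 0.0018). The lowest library of each group was replicate 2, and the groups overlapped through that of medium. Mertk, which takes up dying cells, fell by 0.34 ± 0.07.

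Of 34 Toll-like, NOD and RIG genes 5 rose (14.7%) and 4 fell (11.8%), beside 4.22% and 3.54% of all genes tested (median 0.01). Tlr2, a cell-surface receptor for bacterial lipopeptide, lay at 361 to 492 CPM (median 425) in medium and 611 to 789 CPM (median 686) with IL-33 (0.71 ± 0.06, adjusted p = 1.71e-07). Its partner Tlr1 rose by 0.63 ± 0.10, the co-receptor Cd14 by 0.41 ± 0.08 (0.34 ± 0.05 without medium replicate 2) and the inflammasome sensor Nlrp3 by 0.70 ± 0.15. Tlr13 and Tlr7, endosomal sensors of bacterial and viral RNA, fell by 0.28 ± 0.04 and 0.25 ± 0.05, and Cd180, a surface relative of the Toll-like family, by 0.43 ± 0.08. Tlr13 lay at 324 to 363 CPM (median 327) in medium and 264 to 292 CPM (median 271) with IL-33 without overlap.

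Of 20 C-type and sialic acid lectins 9 rose (45%) and 1 fell (5%), beside 4.22% and 3.54% of all genes tested (median 0.29). Of the 10 with a mean of at least 100 CPM 6 rose and 1 fell, beside 13.3% and 10.7% of all genes at that level. Clec5a, which couples to the adaptor DAP12, lay at 170.1 to 212 CPM (median 179.6) in medium and 248 to 300.5 CPM (median 285) with IL-33 (0.61 ± 0.05, adjusted p = 8.84e-08), with no overlap. Clec4d, the partner of Mincle, rose by 0.37 ± 0.04, and Siglece, an inhibitory sialic acid receptor, by 1.09 ± 0.15. Cd302, a C-type lectin outside the list, lay at 78 to 88.4 CPM (median 83.5) in medium and 127 to 145 CPM (median 135) with IL-33 (0.70 ± 0.04, adjusted p = 3.95e-09).

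Of 43 paired immune and Fc receptors 9 rose (20.9%) and 7 fell (16.3%), beside 4.22% and 3.54% of all genes tested (median 0.00). Of the 19 with a mean of at least 100 CPM 4 rose and 5 fell, beside 13.3% and 10.7% of all genes at that level. Slamf8, a receptor that tempers the oxidative burst, lay at 9.4 to 17.7 CPM (median 12.7) in medium and 28.4 to 38.2 CPM (median 33.3) with IL-33, a rise of 1.38 ± 0.12 (adjusted p = 1.53e-07), and the inhibitory Pilra at 33.5 to 70.3 CPM (median 65.1) in medium and 138 to 154 CPM (median 142) with IL-33, a rise of 1.23 ± 0.11. In Pilra the low value of 33.5 CPM was medium replicate 2, and the rise without it was 1.13 ± 0.05. The activating partners Pilrb1 and Pilrb2 rose by 1.21 ± 0.17 and 1.11 ± 0.14, but the 3 genes are near copies and their reads may be shared. Trem1, an amplifier of Toll-like signals, rose by 1.24 ± 0.17 at low counts. Igsf6, which is outside the list and encodes an immunoglobulin-like surface protein of myeloid cells, lay at 164 to 207 CPM (median 185) in medium and 302 to 351 CPM (median 318) with IL-33 (0.80 ± 0.05, adjusted p = 4.5e-09). The lower members held Fc receptors and checkpoints. Fcgr2b, the inhibitory Fc receptor, and Fcgr3, an activating one, fell by 0.38 ± 0.06 and 0.42 ± 0.07, and 4632428N05Rik, the older symbol of the checkpoint VISTA, fell by 0.40 ± 0.06 on the log2 scale.

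**Figure D2:**
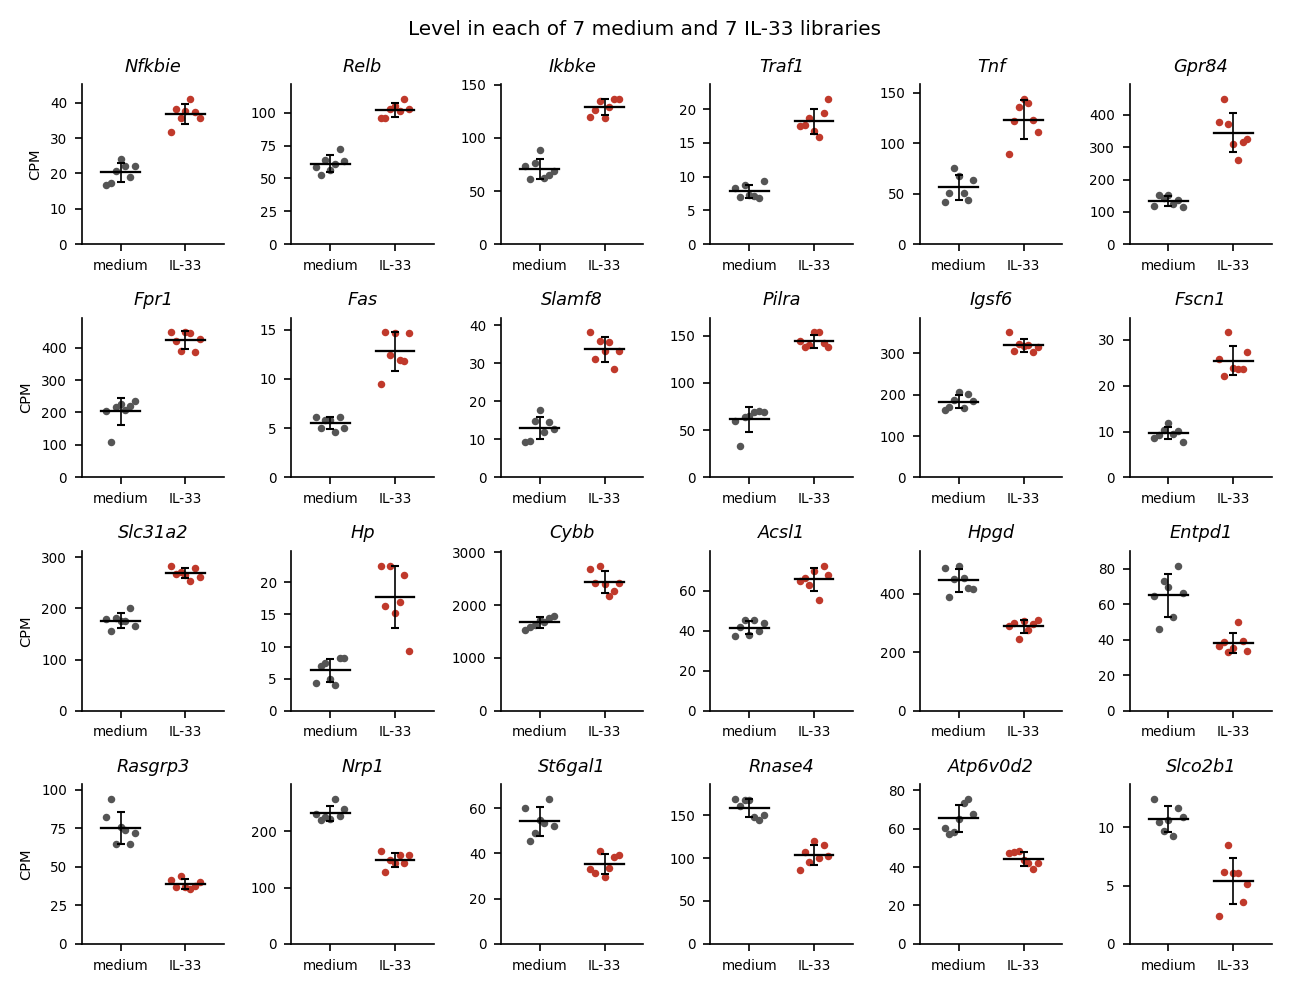
Level in CPM (vertical axes, each from 0) of 24 genes in the 7 medium libraries (grey points) and the 7 IL-33 libraries (red points), with the mean as a line and error bars of 1 SD. In 23 of the 24 genes the groups do not overlap, and Entpd1 is the exception. The 24 were picked from called genes, so this count is built into the choice. Groups did not overlap in 232 of all 456 higher and 148 of all 383 lower genes.

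Genes of adhesion and of the actin cytoskeleton moved in both directions. Of 42 adhesion genes 11 rose (26.2%) and 5 fell (11.9%), beside 4.22% and 3.54% of all genes tested (median 0.04). Of the 23 with a mean of at least 100 CPM 7 rose and 4 fell, beside 13.3% and 10.7% of all genes at that level. Sdc4, a heparan sulfate proteoglycan, rose by 0.59 ± 0.07 and the adhesion molecule Icam1 by 0.87 ± 0.06. Nrp1, a co-receptor for semaphorins and growth factors, lay at 219.5 to 258 CPM (median 227) in medium and 127 to 165 CPM (median 149.7) with IL-33 and fell by 0.63 ± 0.05 on the log2 scale (adjusted p = 9.58e-08). Itgb5, the integrin beta 5 chain used in uptake of apoptotic cells, fell by 0.40 ± 0.05. Fscn1, which bundles actin in cell protrusions, lay at 7.81 to 11.8 CPM (median 9.37) in medium and 22.1 to 31.6 CPM (median 23.9) with IL-33, a rise of 1.4 ± 0.10 (adjusted p = 1.61e-08). Vasp, an actin elongation factor chosen after its values were seen, rose by 0.65 ± 0.06, and the haematopoietic GTPase Rac2 by 0.28 ± 0.04. Rasgrp3 (chr17:75435870-75529054 on GRCm38.p6), a Ras activator, lay at 64.7 to 94.2 CPM (median 73.7) in medium and 35.3 to 43.9 CPM (median 37.4) with IL-33 and fell by 0.96 ± 0.08 (adjusted p = 8.84e-08), with no overlap, and Arhgap25, a brake on Rac, fell by 0.49 ± 0.06.

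Matrix genes and proteases held 8 higher (23.5%) and 3 lower genes (8.82%) of 34, beside 4.22% and 3.54% of all genes tested. Of the 14 with a mean of at least 100 CPM 2 rose and 1 fell, beside 13.3% and 10.7% of all genes at that level. Lox, the lysyl oxidase that crosslinks collagen, lay at 17.3 to 31.1 CPM (median 22.4) in medium and 46.8 to 81.7 CPM (median 61.1) with IL-33 (1.45 ± 0.12, adjusted p = 1.02e-07). Mmp9, a gelatinase, rose from 0.454 to 8.33 CPM (median 2.47) to 4.17 to 27.2 CPM (median 8.94), but the groups overlapped and its SE was large (1.74 ± 0.44). Plau, the urokinase that starts plasmin formation, lay at 72.8 to 142 CPM (median 82.2) in medium and 46.7 to 53.8 CPM (median 51.6) with IL-33 and fell by 0.81 ± 0.11 on the log2 scale. Its medium range was stretched by the 142 CPM of medium replicate 2, and the difference without that library was -0.66 ± 0.06.

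Of 33 metallothionein, zinc and iron genes 11 rose (33.3%) and 1 fell (3.03%), beside 4.22% and 3.54% of all genes tested (median 0.12). Of the 13 with a mean of at least 100 CPM 7 rose, beside 13.3% of all genes at that level. Both copper transporters rose. Slc31a2 lay at 155 to 201 CPM (median 176) in medium and 254 to 284 CPM (median 267) with IL-33 (0.61 ± 0.05, adjusted p = 4.72e-08) and Slc31a1, the copper importer of the plasma membrane, at 246 to 307 CPM (median 259) in medium and 353 to 388 CPM (median 370.2) with IL-33 (0.49 ± 0.05, adjusted p = 3.41e-07), both without overlap. The metal transporters of phagosome and endosome, Slc11a1 (NRAMP1) and Slc11a2 (DMT1), rose by 0.25 ± 0.03 and 0.34 ± 0.04, and the mitochondrial iron importer Slc25a37 by 0.55 ± 0.06. Haptoglobin (Hp), which binds free haemoglobin, lay at 4.01 to 8.24 CPM (median 6.92) in medium and 9.35 to 22.6 CPM (median 16.9) with IL-33, a rise of 1.5 ± 0.20 (adjusted p = 2.74e-05), and Lcn2, which binds the iron-carrying siderophores of bacteria, went from 0.491 to 2.38 CPM (median 1.57) to 2.56 to 11.7 CPM (median 6.11) (2.36 ± 0.32). Both are known acute-phase genes, and neither pair of groups overlapped.

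Of 30 antioxidant genes of the NRF2 type 12 rose (40%, beside 4.22% of all genes tested) and none fell (median 0.21). Of the 18 with a mean of at least 100 CPM 10 rose, beside 13.3% of all genes at that level. Prdx5, a peroxiredoxin of mitochondria and cytosol, lay at 362 to 439 CPM (median 379) in medium and 471 to 538 CPM (median 507) with IL-33 (0.40 ± 0.04, adjusted p = 1.74e-06). Beside them the catalytic subunit of the phagocyte oxidase, Cybb, lay at 1523 to 1801 CPM (median 1681) in medium and 2178 to 2749 CPM (median 2409) with IL-33 (0.55 ± 0.05, adjusted p = 2.32e-07), with no overlap, and its cytosolic subunit Ncf4 rose by 0.43 ± 0.04. Cyba and Ncf1, which encode other subunits, did not pass the test, with log2 fold changes of 0.03 ± 0.04 and 0.07 ± 0.04. The oxidase genes and the Src-family kinase Fgr (0.70 ± 0.09) were in no list and were chosen after their values were seen.

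Glycolysis genes rose by small steps. Of 29 genes of glycolysis and the pentose phosphate path 15 rose and 1 fell (median 0.12), and each of these changes was under 1.5-fold. Of the 15 with a mean of at least 100 CPM 13 rose. Pgk1 and Tpi1, enzymes of the lower path, rose by 0.26 ± 0.04 and 0.27 ± 0.04, Pgd, of the pentose branch, by 0.20 ± 0.03, and Ldha, which makes lactate, by 0.23 ± 0.04. Ldha lay at 1611 to 1746 CPM (median 1681) in medium and 1781 to 2161 CPM (median 1972) with IL-33, with no overlap. Ldhb, the isoform that favours pyruvate, fell by 0.29 ± 0.06. Carriers at the ends of the path rose, Slc2a1 (GLUT1) by 0.31 ± 0.06, Slc2a6 (GLUT6) by 0.76 ± 0.10 and the lactate exporter Slc16a3 by 0.32 ± 0.05. Nuclear-encoded oxidative phosphorylation held 1 higher (1.89%) and 0 lower genes of 53, and the TCA cycle 2 higher (6.45%) and 3 lower (9.68%) of 31. Over all genes tested the shares were 4.22% and 3.54%.

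The largest fold among genes of at least 5 CPM in the higher group was that of Slc13a3 (chr2:165405295-165473197 on GRCm38.p6), a sodium-coupled carrier of citrate-cycle dicarboxylates. It went from 0.681 to 2.75 CPM (median 1.47) in medium to 2.64 to 14 CPM (median 11.7) with IL-33 (2.69 ± 0.34, adjusted p = 1.7e-05). IL-33 replicate 1 was at 2.64 CPM, inside the range of medium, and the other 6 were at 8.62 CPM or more. Ass1, which makes argininosuccinate for arginine synthesis, lay at 31.6 to 65.6 CPM (median 45.1) in medium and 71.7 to 89.7 CPM (median 83.3) with IL-33 (0.77 ± 0.12).

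Lipid genes were mixed, with 9 of 57 higher (15.8%) and 6 lower (10.5%), beside 4.22% and 3.54% of all genes tested (median -0.01). Acsl1, which activates long-chain fatty acids, lay at 37.3 to 45.4 CPM (median 41.9) in medium and 55.2 to 72.7 CPM (median 66.5) with IL-33 (0.66 ± 0.07, adjusted p = 7.9e-07). Lpcat2, which makes platelet-activating factor, rose by 0.48 ± 0.04, the cholesterol exporter Abca1 by 0.36 ± 0.06 and the oxysterol enzyme Ch25h by 0.47 ± 0.10. The fatty acid carrier Fabp5 fell by 0.33 ± 0.05 and the droplet coat gene Plin2 by 0.20 ± 0.03.

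Of 51 lysosome genes 19 fell and 2 rose (median -0.13). Many of these genes are abundant, and 38 of the 51 had a mean of at least 100 CPM. Of these 38, 16 fell and 2 rose, beside 10.7% and 13.3% of all genes at that level. Atp6v0d2 (chr4:19876838-19922566 on GRCm38.p6), a subunit of the proton pump typical of macrophages, lay at 57.4 to 75.5 CPM (median 64.7) in medium and 38.8 to 48.3 CPM (median 43.6) with IL-33 and fell by 0.56 ± 0.07 on the log2 scale (adjusted p = 1.92e-05). Its partner in the membrane sector, Atp6v0a1, lay at 147 to 173 CPM (median 158) in medium and 115 to 132 CPM (median 118) with IL-33 and fell by 0.39 ± 0.05. Neither pair of groups overlapped. Sgsh, a heparan sulfatase, fell by 0.38 ± 0.06, progranulin (Grn) by 0.18 ± 0.03 and prosaposin (Psap) by 0.21 ± 0.05. The higher members were the cathepsins Ctsc (0.23 ± 0.05), which activates granule proteases, and Ctsz (0.12 ± 0.03). The CLEAR core motif, which the lysosomal factor TFEB binds, lay in 8 of 44 promoters of the list (18.2%) beside 1.99% of the promoters of all tested genes, and in 2 of 18 promoters of its lower members (11.1%). The kappaB motif lay in 7 of the 44 (15.9%) beside 5.12% of the promoters of all tested genes, and in 3 of the 18 (16.7%). It was thus not confined to genes that rose. Of 52 endosome and autophagy genes 5 rose and 5 fell (9.62% each, beside 4.22% and 3.54% of all genes tested). Ehd1, which recycles endosomes, rose by 0.58 ± 0.06, its relative Ehd4 fell by 0.42 ± 0.05 and Snx5, a sorting nexin of the retromer path, by 0.37 ± 0.04.

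Of 42 apoptosis and survival genes 8 rose (19%) and 3 fell (7.14%), beside 4.22% and 3.54% of all genes tested (median 0.03). Pim2, a survival kinase, lay at 4.71 to 8.64 CPM (median 4.9) in medium and 10.8 to 17.2 CPM (median 13.8) with IL-33 (1.35 ± 0.15, adjusted p = 2.51e-06), and its highest medium library was replicate 5. Ier3, an early stress gene, rose by 0.92 ± 0.13 and Mcl1, an anti-apoptotic BCL2 relative, by 0.30 ± 0.06, whereas Bcl2l1, which encodes BCL-XL, fell by 0.31 ± 0.05. The near-identical copies Bcl2a1a and Bcl2a1b had opposite signs (0.80 ± 0.11 and -0.25 ± 0.04), and since reads can be split between them neither value is certain. The list also holds Niacr1, a metabolite receptor and no survival gene, which was among the higher members.

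Of 25 homeostatic genes 12 fell (48%, beside 3.54% of all genes tested) and none rose (median -0.25), and the other 13 did not pass the test. Of the 13 with a mean of at least 100 CPM 5 fell, beside 10.7% of all genes at that level. Entpd1 (chr19:40612366-40741602 on GRCm38.p6), the ectoenzyme CD39 that removes extracellular ATP, lay at 46.3 to 81.9 CPM (median 66.2) in medium and 33.3 to 50.03 CPM (median 36.7) with IL-33 and fell by 0.77 ± 0.11 on the log2 scale (adjusted p = 7.82e-05), with overlap of IL-33 replicate 5 at 50.03 CPM and medium replicate 2 at 46.3 CPM. Slco2b1, an organic anion carrier used as a microglial marker, lay at 9.26 to 12.4 CPM (median 10.6) in medium and 2.38 to 8.47 CPM (median 6.04) with IL-33 and fell by 1.0 ± 0.19. Outside that list, St6gal1, which adds sialic acid to glycoproteins, lay at 45.4 to 64.1 CPM (median 53.3) in medium and 29.6 to 41 CPM (median 33.6) with IL-33 (-0.62 ± 0.08, adjusted p = 3.72e-05). Rnase4 lay at 145 to 169 CPM (median 161) in medium and 86.2 to 119.9 CPM (median 103) with IL-33 (-0.61 ± 0.06, adjusted p = 1.77e-06). The groups of both were apart. Ang, angiogenin, fell by 0.85 ± 0.16, but it shares its promoter and first exons with Rnase4, so that reads may be shared. Ephx1, an epoxide hydrolase (-0.61 ± 0.10), Paox, a polyamine oxidase (-0.59 ± 0.09), and Psat1, of serine synthesis (-0.62 ± 0.11), were lower too. In bulk RNA less RNA per cell and fewer cells of a kind cannot be told apart, for these and for all genes above.

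**Figure D3:**
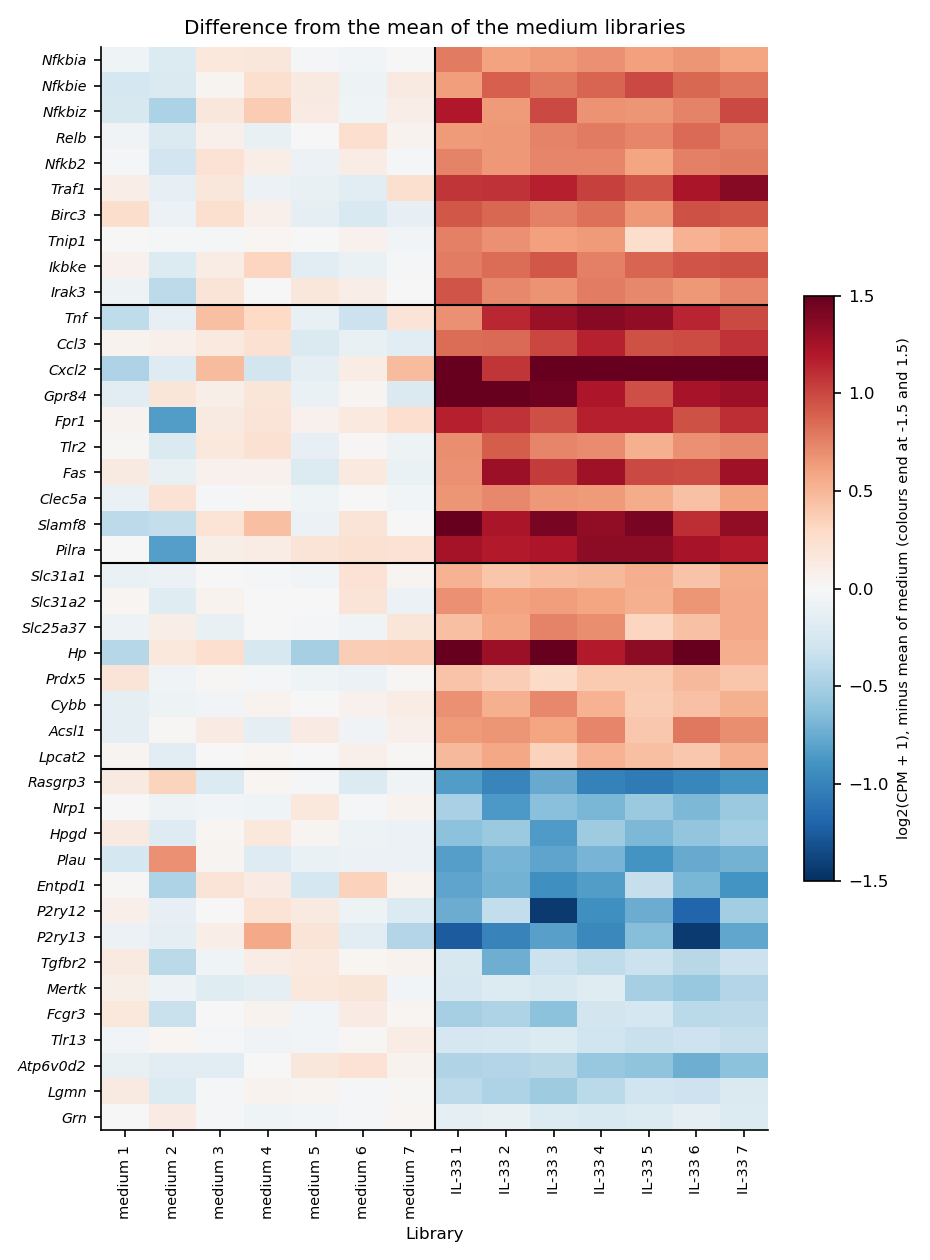
Each row is a gene and each column 1 of the 14 libraries, with colour for log2(CPM + 1) minus the gene's mean over the 7 medium libraries, so that red is above and blue below that mean. The 28 genes above the last line are above the medium mean in all IL-33 columns and the 14 below it are under it. All were picked from called genes, so these counts are built into the choice. Medium replicate 2 differs from its group in Fpr1, Pilra and Plau.

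**Figure D4:**
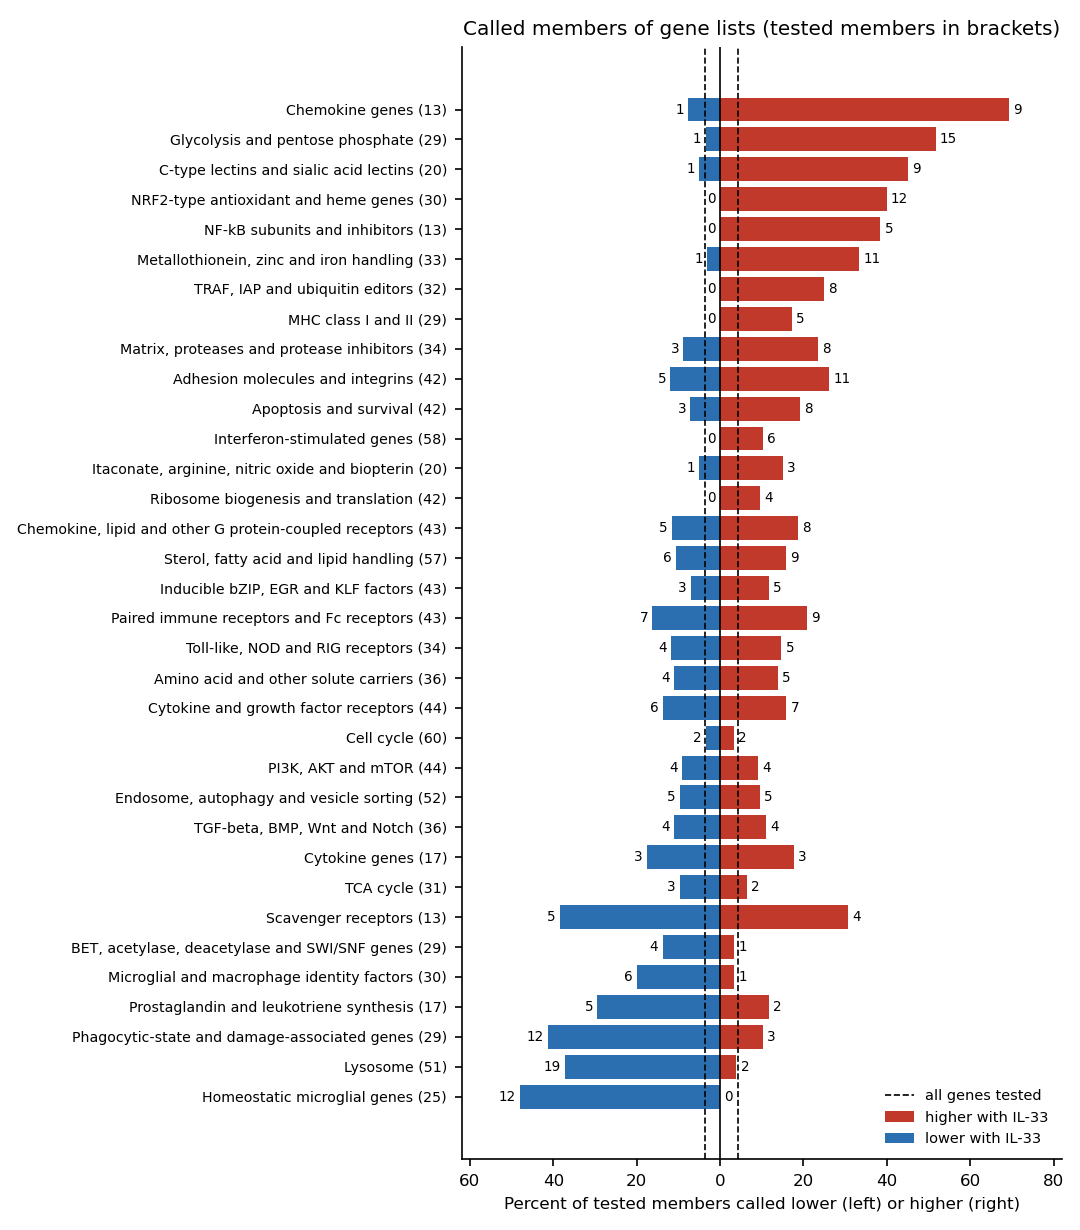
Percent of the tested members of 34 gene lists called higher (red, to the right) or lower (blue, to the left), with the number called beside each bar and the number tested in brackets. Dashed lines mark 4.22% and 3.54%, the shares over all genes tested. Lists differ in how abundant their genes are, which also sets how many can be called.

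Of 58 interferon-stimulated genes 6 rose (10.3%) and none fell (median 0.07), beside 4.22% and 3.54% of all genes tested. Of 29 genes of antigen presentation 5 rose (17.2%) and none fell (median 0.06). Of 33 genes of the unfolded protein response and heat shock 3 rose (9.09%) and none fell (median 0.01). Of 60 cell cycle genes 2 rose and 2 fell, shares near the background, although the median was -0.17. Of 16 genes of alternative macrophage activation 3 rose (18.8%) and none fell (median -0.06). Of 29 phagocytic-state genes 12 fell (41.4%) and 3 rose (10.3%) (median -0.13). Of the 21 with a mean of at least 100 CPM 10 fell and 1 rose, beside 10.7% and 13.3% of all genes at that level.

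The response was last set beside the Tau-GFP contrast from the same count table, with which it shares no library. That contrast holds 8 libraries of Tau-GFP plus and 8 of Tau-GFP negative microglia from B6/129 carriers of Mapttm1(EGFP)Klt, sorted from cortex at postnatal day 10 by GFP made from the Mapt locus, which is active in neurons. In that contrast 20.7% of 12138 genes were higher and 16.9% lower. Of the 411 genes higher with IL-33 that could be tested there, 140 (34.1%) were higher in Tau-GFP plus cells and 76 (18.5%) lower. Of 375 genes lower with IL-33, 104 (27.7%) were higher there and 137 (36.5%) lower. Genes called with IL-33 were more often abundant ones (24% called over 100 CPM and 2.3% under 5 CPM). The shares were not compared with those of genes of like level, so the part of level in them was not tested. The difference between both log2 fold changes, tested in 1 fit of all 30 libraries, was called in 240 of the 456 higher genes and 204 of the 383 lower genes, beside 22.3% of all genes tested. These genes were chosen by the IL-33 change that the difference contains, so a share above that of all genes is built into the choice.

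These values come from edgeR's quasi-likelihood test. Tnf was higher in both contrasts (1.14 ± 0.12 with IL-33 and 1.98 in Tau-GFP plus cells, adjusted p = 4.43e-05), and the difference missed the threshold (-0.85, adjusted p = 0.0731). Gpr84 rose with IL-33 and was lower in Tau-GFP plus cells (-0.71, difference 2.07, adjusted p = 9.81e-12), and Lpcat2 did the same (-0.83, difference 1.31, adjusted p = 1.23e-10). Fabp5 and Plin2 fell with IL-33 and were higher in Tau-GFP plus cells (2.16 and 1.17, differences -2.49 and -1.36, adjusted p = 1.23e-10 and 2.5e-10). P2ry12 was lower in both (-0.91, difference 0.03, adjusted p = 0.932). Culture, age, strain background and the way the cells were collected differ between the experiments and cannot be told apart from the contrast.

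**Figure D5:**
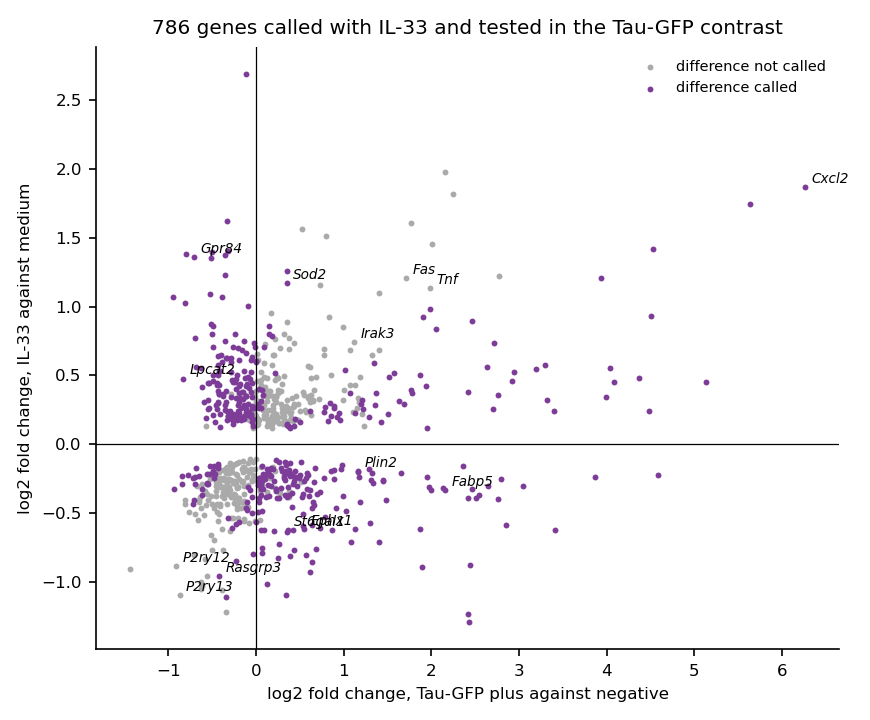
Log2 fold change with IL-33 (vertical axis) against that in Tau-GFP plus over negative cells (horizontal axis) for the 786 genes called with IL-33 and tested in both, in purple where the difference between the contrasts was called and in grey where it was not. Points lie on both sides of 0 on each axis, with changes of up to several log2 units in the Tau-GFP contrast for genes that moved less with IL-33.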

How the data were processed

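Expected counts per gene were deposited by the authors in 1 table of 35 columns. Per the submitters' processing notes Bowtie2, RSEM and the mouse build mm10 were used, with no version in those notes. Per the labels' protocols the libraries were made with Smart-seq 2. Columns were matched to samples by the code in each title, and 5 columns with no matching label were not used. Of the values in the cultured libraries 22.74% were not whole, and all were rounded. Rows whose symbols had turned into dates (27, with 0.1226% of the counts) are not named. IL-33 was compared with medium in R 4.3.3 with edgeR 4.0.16 (filterByExpr, TMM scaling, quasi-likelihood test, Benjamini-Hochberg adjusted p under 0.05), on the 14 cultured libraries, and values after ± are SEs. Tau-GFP libraries were fitted alone, and the difference between the contrasts in 1 fit of 30 libraries. Depth per culture was 7709047 to 11826389 counts.

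The members and gene lists were chosen with earlier results of these data known, so a list's count is a description. Genes were named by a rule: the 20 each way of smallest p with at least 1.5-fold change and 5 CPM, the 10 of largest fold, and up to 6 called members per list and direction. Genes outside the rule were chosen after their values were seen. Motifs were searched in RefSeq promoters of GRCm38.p6. Alternatives were other scaling, DESeq2 1.42.0, limma 3.58.1 with voom, other filters, a replicate block, a stricter threshold and leaving out each library, and, chosen after seeing the data, a term for libraries numbered 1 to 3 and a fit without Rn45s. Tested on simulated data for IL-33 against medium (10912 genes), the test recovered 28.6% of the smallest changes (all under 1.5-fold), 75.6% of 1.5-fold, 92.9% of 2-fold and 97.8% of 3-fold changes and called 0.0279% of unchanged genes. For the difference between the contrasts (11385 genes) it recovered 17.8%, 45.8%, 80.4% and 87.5% of the same sizes. All simulated libraries, Tau-GFP ones included, were drawn with the spread of the cultured libraries and the gene levels of medium. Sorted cells have a spread of their own, so these shares for the difference may not hold for the real libraries. TMRM-sorted and single-cell samples were not used here.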

Additional observations from a re-analysis of the deposited data

Results flagged for a closer look

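Of 320 combinations of a named gene and a group of 7 libraries, 32 (10%) held a library whose gap to its neighbour was too large a part of the group's range by Dixon's test (95% level). Chance flags about 1 in 20 groups. Medium replicate 2 held 16 of the 32. It was the highest of its group for Ccl5 (12.3 CPM), Ch25h (253 CPM), Clec4e (179.8 CPM), Clec5a (212 CPM), Ctsz (1796 CPM), Fgr (64.7 CPM), Plau (142 CPM) and Psat1 (47.9 CPM). It was the lowest for Cd14 (662 CPM), Cebpa (22.9 CPM), Fpr1 (110.0 CPM), Lpcat2 (209 CPM), Pilra (33.5 CPM), Pilrb1 (4.88 CPM), Ptgs1 (33.3 CPM) and Tgfbr2 (223 CPM). For 9 of the 16 genes it lay nearer the IL-33 mean than the mean of the other medium libraries did, and for 7 further from it. Among all 456 higher and 383 lower genes its mean deviation on the log2 scale was -0.04 and 0.00.

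IL-33 replicate 1 was the highest of its group for Arhgap25 (127 CPM), Ehd1 (251 CPM), Igsf6 (351 CPM), Irak3 (126 CPM), Irf8 (293 CPM) and Tlr7 (138 CPM). IL-33 replicate 2 was the lowest for Saa3 (143 CPM) and Tgfbr2 (177 CPM). IL-33 replicate 3 was the highest for C3 (290.5 CPM) and the lowest for Tpi1 (749.9 CPM), and IL-33 replicate 5 the highest for Entpd1 (50.03 CPM) and Rela (87.9 CPM). Among medium libraries Prdx5 was high in replicate 1 (439 CPM), Pim2 in replicate 5 (8.64 CPM), Slc31a1 in replicate 6 (307 CPM) and Ptgs2 in replicate 7 (4.92 CPM).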

How the results depend on the processing

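The main test called 456 higher and 383 lower genes. A fit of all 30 libraries, which estimates 1 spread for cultured and sorted cells, called 184 and 154, and a threshold of 0.01 called 289 and 207. The cause of the first was not tested. Leaving out each library gave 389 to 487 higher and 311 to 402 lower genes. DESeq2 called 513 and 470, library totals 543 and 325, no filter 431 and 320, and the term for libraries numbered 1 to 3 called 507 and 442. No called gene changed sign in any of these settings. Of 151 single genes checked that were called, 42 missed the threshold in the fit of all libraries and 6 at 0.01. Of 34 list counts of at least 5, 27 and 10 moved by over 1.5 times in those fits, and 1 under DESeq2. Replicate numbers were not treated as pairs, since no label ties them and not every same-numbered pair had r over 0.1 (r = -0.0788 to 0.263 between same-numbered medium and IL-33 libraries, -0.161 to 0.28 between Tau-GFP libraries). It was over 0.1 in 2 of 7 and 5 of 8 pairs, and 1 of 7 and 4 of 8 numbers matched best with themselves, which for Tau-GFP is a hint of pairing from the data. A fit with the replicate number as a block called 470 and 399 genes with IL-33, 2445 and 2092 for Tau-GFP (2516 and 2054 without it) and 2845 for the difference (2846).

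The genes Rel, Rela and Kdm6b, which were not called, changed sign when a library was left out, with ranges of -0.0093 to 0.0551 for Rel, -0.0332 to 0.0242 for Rela and -0.22 to 0.16 for Kdm6b. The median SE was 0.253 under 5 CPM and 0.046 over 100 CPM, and the part of sequencing depth in this was not tested.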
